A study of Mus musculus with 14 samples.

Results

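Pax5 and Zcchc7 are neighbouring genes on mouse chromosome 4 whose starts lie 45.9 kb apart and point away from each other. Every peak of the 9 deposited lists that overlapped the GRCm38 body of either gene, extended by 10 kb on each side, was taken. This gave 173 of 196179 peaks, 62 at Pax5 and 111 at Zcchc7. The Pax5 body runs over chr4:44524748-44710694 on the minus strand and is 185947 bp long. The Zcchc7 body runs over chr4:44756558-44932215 on the plus strand and is 175658 bp long. The annotation used gives gene bodies and starts, so exons and introns were not resolved and a peak between start and end is called a gene body peak. Other annotated features lie in the windows: the microRNA gene Mir5120, which held no peak, the lncRNA genes Gm12462 and 5730488B01Rik in the Pax5 body, and the pseudogene Gm12463 just before the Zcchc7 start.

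The study mapped the chromatin remodeller Brg1 by ChIP-seq in cells with different versions of the B-lineage transcription factor EBF1, and asked what the C-terminal domain (CTD) of EBF1 contributes. For 5 Brg1 libraries, c-kit+ progenitors from the fetal liver of EBF1-/- C57BL/6 embryos of day 16 to 18 were transduced with a pMys-type retroviral vector carrying IRES-GFP, and cultured for 14 to 20 days on OP9 stromal cells with IL7, SCF and Flt3 ligand. All 5 groups lack endogenous EBF1. They received the empty vector, EBF1 wt, EBF1 dC (CTD deleted), EBF1 dPLD (residues 480 to 520 deleted) or EBF1 F-GATA3 (CTD replaced by the TA1 domain of GATA3). Per the labels, the pro-B stage was reached with wt and with F-GATA3, development was partly blocked before it with dC and with dPLD, and blocked before it with the empty vector. The other 4 libraries, 2 of Brg1 and 2 of EBF1, are from pro-B cells transformed with Abelson murine leukemia virus (A-MuLV), derived from EBF1 fl/fl fetal liver, in which endogenous EBF1 was replaced by wt or dC. Crosslinking used EGS with 2% formaldehyde in fetal liver cells, EGS with 1% for Brg1 in A-MuLV cells, and, for EBF1, 1% formaldehyde without EGS.

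Each group had 1 library, so no difference below has a replicate check and none was tested. The lists held 17687 to 30301 peaks in fetal liver cells, 24420 and 24493 for A-MuLV Brg1, and 6155 (wt) and 11147 (dC) for EBF1. Sequencing depth is unknown, so the absence of a peak does not show the absence of Brg1 or EBF1. The lowest −log10 q was 10.0 in the fetal liver and EBF1 lists. For Brg1 in A-MuLV cells it was 1.37 with wt and 1.33 with dC, so those lists reach weaker peaks. Peaks do not report expression, so the EBF1 version of each library was not checked here. Of the pro-B marker genes, 3 of 6 had a Brg1 peak with the empty vector and 6 of 6 with each EBF1 version. Igll1 and Vpreb1 had equal highest folds (27.6 for Brg1 wt, 36.5 for EBF1 wt, 41.3 for EBF1 dC), so these may not be 6 separate loci. Of 4 myeloid markers (Csf1r, Cebpa, Mpo, Elane), 4 had a peak with the empty vector, 2 each with wt, dC and dPLD, and 1 with F-GATA3. These pro-B and myeloid counts therefore did not separate dC or dPLD from wt. The share of all genes with a wt peak is not given here, so the marker counts have no background. Of 4 T-lineage markers, Cd3e and Tcf7 had a peak in both the wt and the empty-vector list. Of 4 stromal markers, Pdgfrb had 4 peaks with the empty vector and 0 with wt, Col1a1 had 0 and 1, and the others had none in either list. Stage and EBF1 version cannot be told apart between these cells, nor can more cells of a stage be told from more Brg1 per cell.

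Pax5 encodes the transcription factor that commits lymphoid progenitors to the B lineage, and EBF1 is known to activate it. Known control regions of Pax5 include its promoter and an enhancer in the fifth intron, and in human B cells an enhancer of PAX5 lies on the ZCCHC7 side. Zcchc7 encodes a zinc-knuckle protein known in human cells from a nuclear complex that marks RNAs for decay. Brg1 (gene Smarca4) is the motor of BAF remodelling complexes, which move nucleosomes and open chromatin at enhancers and promoters.

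The sequences just before the starts are shown because Brg1 was called over both, while EBF1 was called over that of Zcchc7 only. Both are 250 bases from RefSeq on GRCm38.p6, written in the direction of the gene. For Pax5 (chr4:44710695-44710944, minus strand), capitals mark the stretch from the lowest to the highest of the fetal liver Brg1 summits with wt, dC and dPLD. For Zcchc7 (chr4:44756309-44756558, plus strand), capitals mark the bases inside the EBF1 wt peak.
Pax5: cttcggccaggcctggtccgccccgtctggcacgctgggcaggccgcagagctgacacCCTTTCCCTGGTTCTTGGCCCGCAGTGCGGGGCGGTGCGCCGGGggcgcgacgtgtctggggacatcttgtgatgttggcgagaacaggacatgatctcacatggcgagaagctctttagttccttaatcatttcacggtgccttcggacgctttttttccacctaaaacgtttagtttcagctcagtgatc
Zcchc7: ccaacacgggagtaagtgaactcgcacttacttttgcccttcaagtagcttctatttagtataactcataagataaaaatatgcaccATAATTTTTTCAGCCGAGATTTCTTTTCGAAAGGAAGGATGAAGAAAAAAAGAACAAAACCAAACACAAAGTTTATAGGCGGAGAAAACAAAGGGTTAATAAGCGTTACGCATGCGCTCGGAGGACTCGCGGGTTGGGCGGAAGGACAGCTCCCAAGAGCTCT
The G+C content of the Pax5 run was 58.8% and that of the Zcchc7 run 42.0%, against a median of 52.4% over 32851 promoters. The core of the EBF1 motif, CCCNNGGG, and its longer form TCCCNNGGG, which contains it, were searched on both strands in the 250 bases before and 50 after each start. Neither promoter held either. Of all promoters, 13.7% held CCCNNGGG and 6.56% held TCCCNNGGG. No match says only that these letters are not in the window.

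Pax5 held no Brg1 peak in empty-vector cells and several with every version of EBF1. Its window had 0 peaks with the empty vector, 10 with wt, 7 with dC, 8 with dPLD and 7 with F-GATA3 in fetal liver cells. In A-MuLV cells it had 13 Brg1 peaks with wt and 11 with dC. EBF1 itself was called at 2 sites with wt and 4 with dC. The empty-vector library therefore stood apart from the other 6 Brg1 libraries at Pax5. At Zcchc7 the separation was partial: 6 peaks with the empty vector, 14 with wt, 16 with dC, 12 with dPLD and 11 with F-GATA3, then, in A-MuLV cells, 24 Brg1 peaks with wt and 15 with dC. EBF1 sites at Zcchc7 numbered 6 (wt) and 7 (dC). All 10 fetal liver wt peaks at Pax5 and 10 of 14 at Zcchc7 overlapped no empty-vector peak (called gained below), where 63.9% of all 29354 wt peaks did so. A gained peak lay within 10 kb of 48.9% of the 21887 protein-coding genes and an empty-vector peak within 10 kb of 45.2%.

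**Figure D1:**
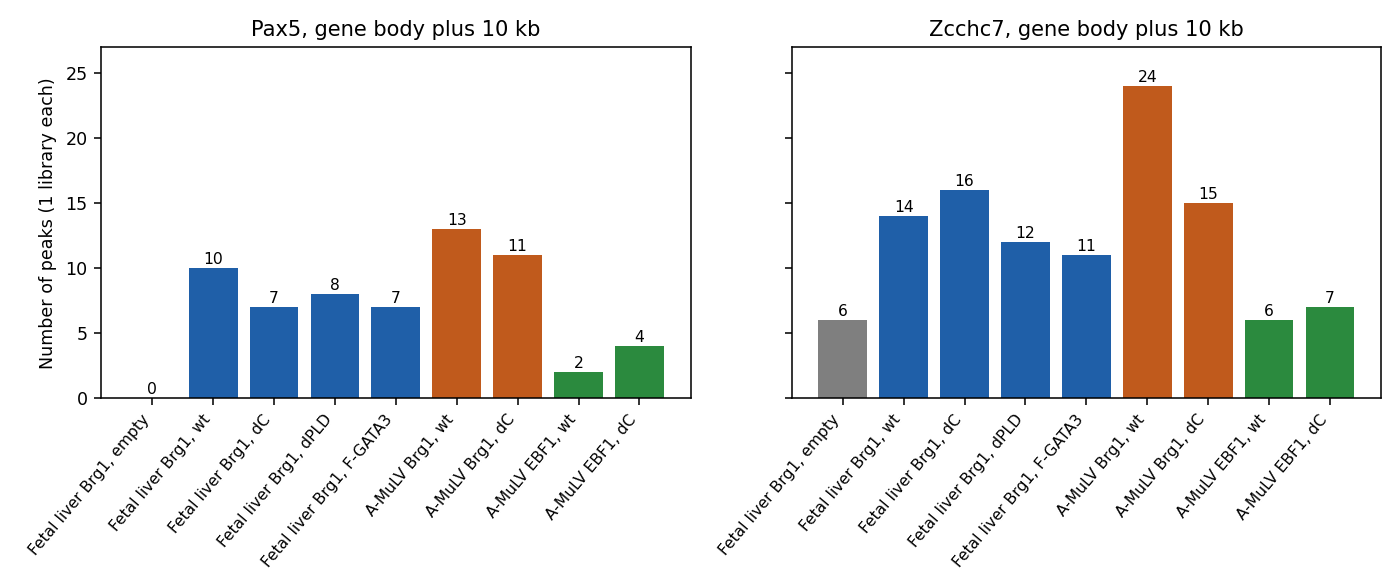
Number of peaks in the Pax5 (left) and Zcchc7 (right) windows in each of the 9 lists, 1 library per bar. Pax5 has 0 peaks with the empty vector and 7 to 10 in the other fetal liver lists, and Zcchc7 has 6 against 11 to 16.

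The length of DNA under Brg1 peaks was counted too. In the fetal liver cells Brg1 peaks covered 17.90 kb of the Pax5 window with wt, 18.70 kb with dC, 21.04 kb with dPLD and 13.56 kb with F-GATA3. At Zcchc7 they covered 5.05 kb with the empty vector, 21.55 kb with wt, 28.64 kb with dC, 23.01 kb with dPLD and 16.19 kb with F-GATA3. F-GATA3 gave the smallest covered length of the 4 EBF1 versions at both genes. Its list was also the shortest, with 25072 peaks against 29354 (wt), 30301 (dC) and 27550 (dPLD). The length covered over the whole genome is not given here, so this is not read as particular to these genes. The median peak over the whole list was 1103 bp wide with wt, 1248 bp with dC, 1325 bp with dPLD and 1139 bp with F-GATA3. Peaks were narrower in the A-MuLV lists, where Brg1 covered 7.51 kb (wt) and 6.32 kb (dC) at Pax5 and 12.38 kb and 8.58 kb at Zcchc7.

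Pax5 and Zcchc7 were tied, each with 10 gained peaks, at rank 35 of 21887 protein-coding genes, a rank held by 19 genes. Both are long genes, and longer windows can hold more peaks. Of 140 genes with at least 10 fetal liver wt peaks, 5 had no empty-vector peak. Beside Pax5 these were Asic2, Iqsec1, Tead1 and Zmat4, which are named here after their values had been seen. All 4 have bodies longer than that of Pax5, from 227429 bp (Tead1) to 1088234 bp (Asic2).

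**Figure D2:**
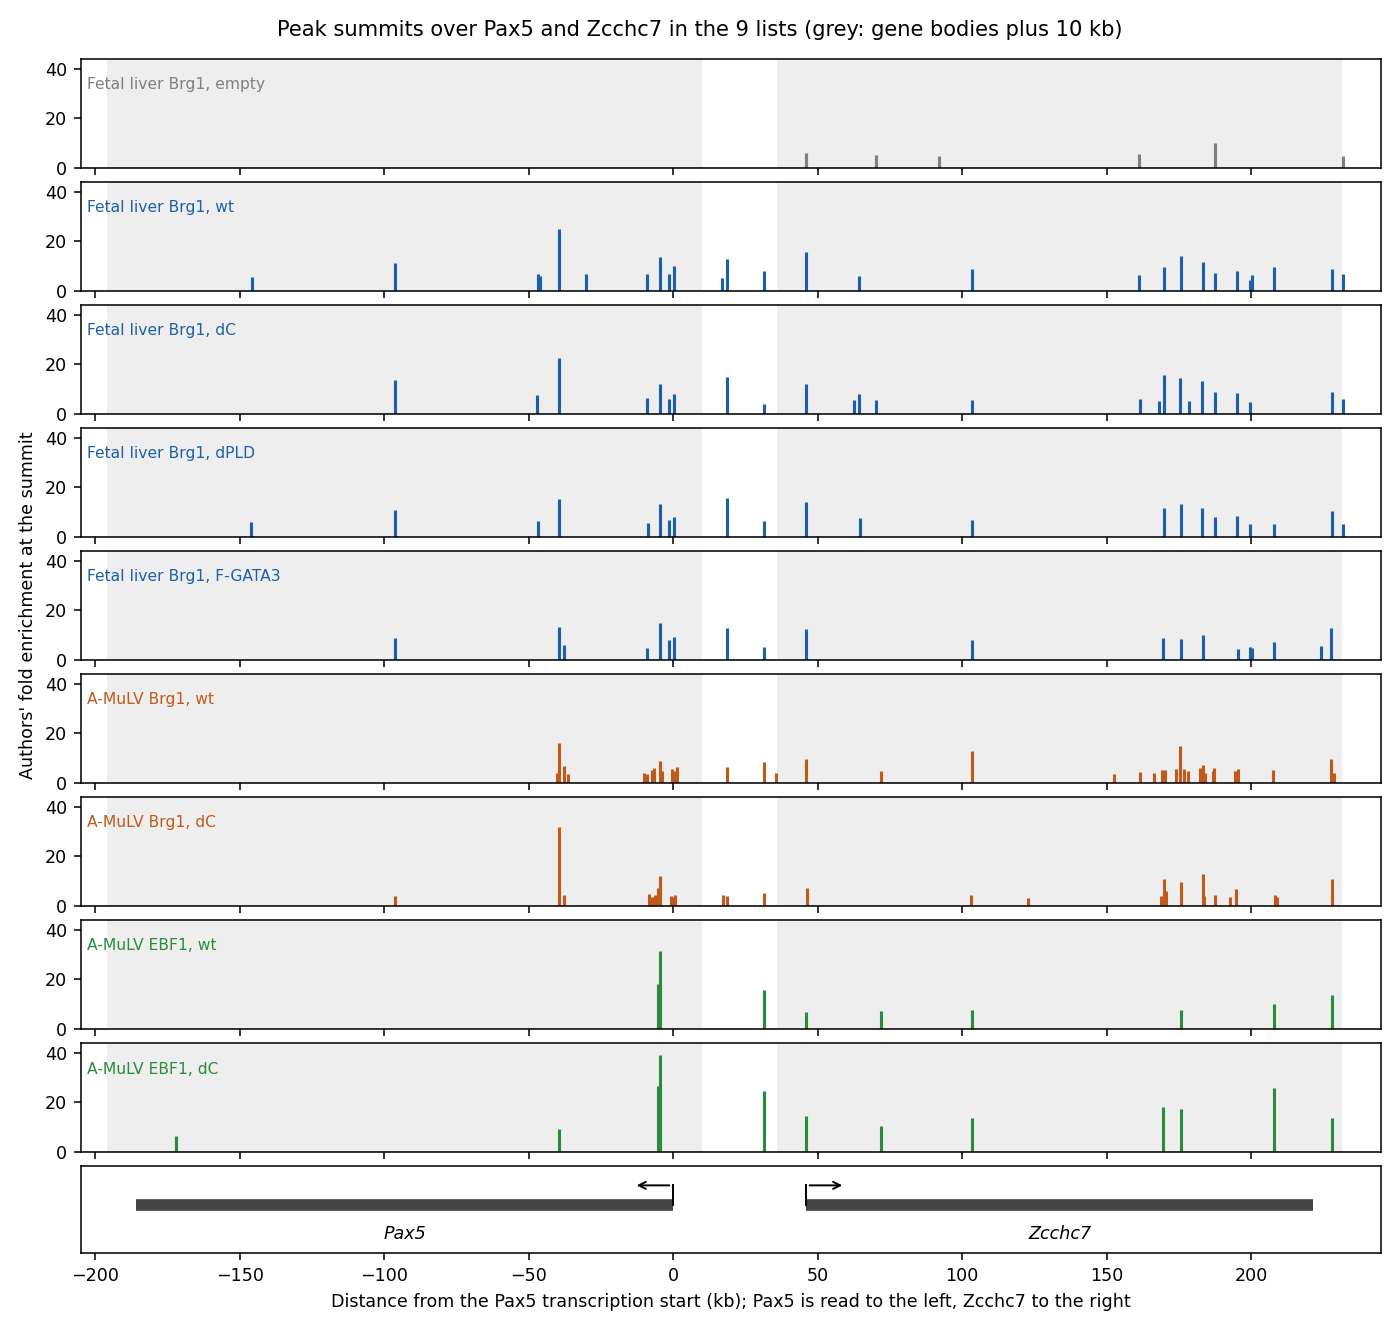
Peak summits along the Pax5 and Zcchc7 region in the 9 lists, with distance from the Pax5 start in kb on the x axis and the authors' fold enrichment on the y axis. Grey marks the gene bodies plus 10 kb, and arrows mark the starts. The empty-vector list has no line over Pax5, and the lines about 39.5 kb inside Pax5 are the tallest of that gene in 5 Brg1 lists.

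The Pax5 start itself was covered by a broad Brg1 peak with each EBF1 version. In fetal liver cells this peak was 4508 bp wide with wt, 4507 bp with dC, 4949 bp with dPLD and 4940 bp with F-GATA3, and most of it lay before the start. Its summit was 192 bp (wt), 169 bp (dC), 149 bp (dPLD) and 266 bp (F-GATA3) upstream, at authors' folds of 9.94, 8.14, 8.13 and 9.36. The capitals of the Pax5 sequence above were set by the wt, dC and dPLD summits, so they hold these by construction. The F-GATA3 summit lies outside the 250 bases printed. In A-MuLV cells the same stretch was split into short peaks, 3 with wt at folds of 4.92 to 6.61 and 3 with dC at 3.59 to 4.44. No EBF1 peak was called there with either form, and the empty-vector list had no peak. Over 21263 promoter windows, a Brg1 peak was called at 22.7% with the empty vector, 45.8% with wt, 47.2% with dC, 45.7% with dPLD, 43.2% with F-GATA3, and in A-MuLV cells at 35.6% with wt and 34.1% with dC. EBF1 peaks were rare at promoters, at 2.57% with wt and 6.58% with dC.

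Inside the gene, 1.4 to 1.5 kb from the Pax5 start, each EBF1 version gave a further fetal liver peak, at folds of 6.89 (wt), 5.86 (dC), 7.03 (dPLD) and 7.95 (F-GATA3). Neither A-MuLV Brg1 list had a peak with its summit there. Another peak 8.8 to 9.2 kb inside had folds of 6.85 with wt, 6.53 with dC, 5.52 with dPLD and 4.93 with F-GATA3. Both A-MuLV Brg1 lists had a peak joined to this position. The wt peak had a fold of 3.85 and its summit 9.0 kb inside, the dC peak 4.98 and 8.3 kb. These A-MuLV wt and dC peaks share no base with each other.

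Between these, about 4.5 kb inside Pax5, lay the gene's strongest EBF1 site. EBF1 had a summit 4.5 kb from the start at a fold of 31.4 with wt, rank 121 of 6155 peaks, and 39.2 with dC, rank 84 of 11147. A weaker EBF1 summit 5.3 kb from the start had folds of 18.0 (wt) and 26.8 (dC). Brg1 was called across the pair by 1 peak of 3406 to 4446 bp per fetal liver EBF1 version, with its summit at 4.5 or 4.6 kb. Those Brg1 folds were 13.8 with wt, 12.0 with dC, 13.3 with dPLD and 14.8 with F-GATA3. The highest Brg1 peak of this stretch in A-MuLV cells was 8.96 with wt and 12.0 with dC, also with its summit at 4.5 kb. In dC cells a separate Brg1 peak of 7.31 stood over the weaker EBF1 site. All 8 lists other than the empty vector therefore had a peak here, the only such position of the 10 in Pax5. The broad Brg1 peaks reach into the lncRNA gene 5730488B01Rik, which lies between these EBF1 sites and the peak at 9.0 kb.

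**Figure D3:**
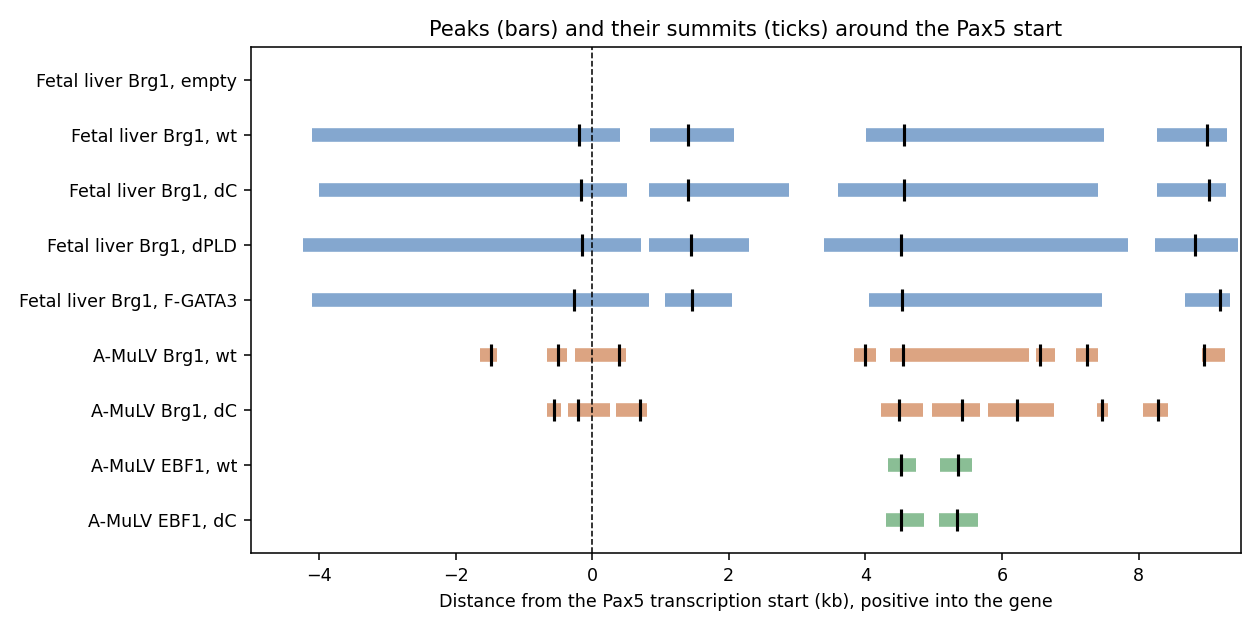
Peaks (bars) and summits (ticks) around the Pax5 start in the 9 lists, with distance from the start in kb, positive into the gene. The fetal liver Brg1 bars at the start and at 4.5 kb have like edges with all 4 EBF1 versions, the A-MuLV Brg1 bars are shorter, and the EBF1 bars stand at 4.5 and 5.3 kb only.

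The strongest Brg1 position of Pax5 lay deep in the gene, 39.5 kb from the start. With wt EBF1 in fetal liver cells its fold was 24.8, rank 125 of 29354 peaks. It was 22.4 with dC (rank 167 of 30301), 15.5 with dPLD (rank 895 of 27550) and 13.3 with F-GATA3 (rank 1353 of 25072). In A-MuLV cells it was 16.2 with wt (rank 284 of 24493) and 31.8 with dC, rank 5 of 24420 peaks. It was the highest peak of Pax5 in every Brg1 list other than the empty vector, which had none, and F-GATA3, where the peak at 4.5 kb was higher. The Brg1 summits of the 6 libraries fell between 44671165 and 44671238. EBF1 was called there with dC alone, at a fold of 9.31, rank 4853 of 11147, and not with wt. Sequencing depth is unknown and which input served which library is not given. The order of folds between libraries is therefore not read as a change.

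Further into Pax5, a position 96.3 kb from the start was called with all 4 EBF1 versions in fetal liver cells. Its folds were 11.1 with wt, 13.7 with dC, 10.8 with dPLD and 8.82 with F-GATA3. In A-MuLV cells it was called with dC alone (4.14), and EBF1 was not called there. Thus 5 of the 10 positions of Pax5 were called with all 4 versions in fetal liver cells. Of these, 4 also had peaks in both A-MuLV Brg1 lists. At 1 of the 4, the position around 9.0 kb, the A-MuLV wt and dC peaks do not overlap. The share of all joined positions called in these ways is not given here, so the counts have no background.

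The remaining Pax5 positions were not called with all 4 versions, and their folds were at most 7.61. The stretch 46.1 to 47.0 kb inside the gene had 2 wt peaks (6.83 and 5.99), a dC peak (7.61) and a dPLD peak (6.30), and none with F-GATA3. The position at 145.9 kb had a wt peak (5.83) and a dPLD peak (6.00). A peak 30.3 kb inside, at 6.77, was called with wt alone, and it touches the lncRNA gene Gm12462. An A-MuLV wt peak at 10.1 kb (4.19) and an EBF1 dC peak at 172.3 kb (6.57) each stood alone, the latter without Brg1 in any list.

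Zcchc7 had 24 positions. At its start Brg1 was called in all 7 Brg1 libraries and EBF1 with both forms, the only position of either gene with a peak in all 9 lists. The Brg1 folds there were 5.90 with the empty vector, 15.6 with wt, 12.3 with dC, 14.3 with dPLD and 12.5 with F-GATA3, then 9.88 (wt) and 7.25 (dC) in A-MuLV cells. The EBF1 summit lay 2 bp (wt) or 1 bp (dC) from the start, at folds of 6.79 and 14.5. The Brg1 summits lay 140 to 177 bp inside the gene in 6 libraries and 426 bp inside in A-MuLV dC cells.

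By wt fold in fetal liver cells, the 4 highest gained peaks of Zcchc7 lay 123.9 to 162.0 kb from its start, towards the far end of the gene body. At 129.7 kb from the start Brg1 had folds of 14.1 (wt), 14.5 (dC), 13.4 (dPLD) and 8.36 (F-GATA3) in fetal liver cells and 15.1 (wt) and 9.76 (dC) in A-MuLV cells. At 137.3 kb the folds were 11.8, 13.2, 11.8 and 10.2 in the same order of versions, and 7.19 (wt) and 13.0 (dC) in A-MuLV cells, with no EBF1 peak. At 123.9 kb they were 9.49, 15.8, 11.6 and, at 123.8 kb, 8.76. These 3 positions lacked an empty-vector peak and had Brg1 peaks in both A-MuLV lists. EBF1 was called at 129.8 kb with both forms (7.64 and 17.5) and at 123.8 kb with dC alone (18.1, rank 1309 of 11147).

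In fetal liver cells, Brg1 was called 162.0 kb inside Zcchc7 with wt (9.84), dPLD (5.24) and F-GATA3 (7.10), and not with dC. The dPLD peak was weak, at rank 22783 of 27550. EBF1 dC was called there at 26.0, rank 475 of 11147, the highest EBF1 dC fold of the gene, and EBF1 wt at 10.1. In A-MuLV cells Brg1 was called with wt (5.47) and with dC (4.31), the latter with its summit 289 bp from that of EBF1 wt. It was the 1 gained peak of 10 at Zcchc7 without a dC peak, where 76.3% of all 18765 gained peaks had one. The missing call rests on 1 library and is not read as a difference between versions.

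Downstream of Zcchc7, 182.0 to 182.3 kb from its start, Brg1 was called with wt (8.87), dC (8.77), dPLD (10.5) and F-GATA3 (12.9), and in A-MuLV wt (9.54) and dC (11.1) cells. This was the highest F-GATA3 peak of the Zcchc7 window. EBF1 was called there at 13.8 with wt and 13.9 with dC. At 57.4 kb, another site of both proteins, Brg1 folds were 8.98 (wt), 5.47 (dC), 6.90 (dPLD) and 8.07 (F-GATA3), and 13.1 and 4.30 in A-MuLV wt and dC cells, beside EBF1 folds of 7.80 and 13.6. At 26.1 kb EBF1 was called with both forms (7.10 and 10.4), but Brg1 in A-MuLV wt cells alone (4.83).

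The 6 empty-vector peaks lay at the Zcchc7 start and at 24.2, 46.1, 115.3, 141.5 and 186.0 kb. The one at 141.5 kb was the strongest, at 10.1, rank 1172 of 17687. It was called with wt (7.10), dC (8.92) and dPLD (8.27) too and not with F-GATA3. Of the 6, 4 overlapped a wt peak, where 61.3% of all 17687 empty-vector peaks did, and the one at 46.1 kb (4.72) had no peak in any other list. F-GATA3 overlapped 1 of the 6, at the start, where it overlapped 57.3% of all. Other positions of Zcchc7 with all 4 versions were those at 149.2 to 149.5 kb (7.92, 8.61, 8.50 and 4.54) and at 153.6 to 154.5 kb (6.47, 4.84, 5.13 and 5.45). In all, 8 of the 24 were called with all 4 versions, 7 of them without the empty vector. Among fetal liver lists, 3 were called with dC alone, at 16.6, 122.1 and 132.7 kb and folds of 5.31 to 5.60. As at Pax5, the share over all joined positions is not given here, so these counts have no background. At the edge of the Zcchc7 window, the peaks at 185.9 and 186.0 kb (4.72 with the empty vector, 6.70 with wt, 6.17 with dC and 5.43 with dPLD) reach across it and were kept. Just outside the other edge, an A-MuLV wt peak at 44746148 to 44746325 (3.92) was not.

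**Figure D4:**
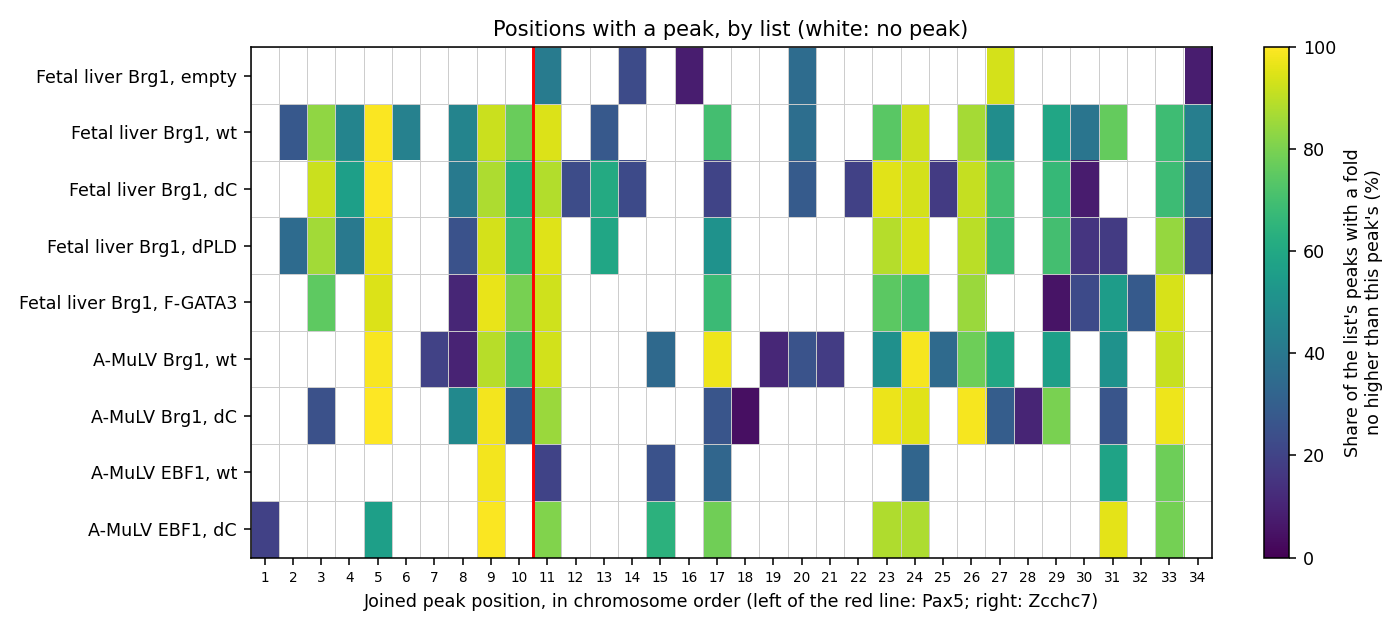
The 34 joined peak positions of Pax5 (1 to 10) and Zcchc7 (11 to 34) by list, where white means no peak. The colour gives the percentage of the list's peaks whose fold was no higher than the highest at that position. The empty-vector list is white over all 10 Pax5 positions and coloured at 6 of 24 in Zcchc7.

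Most gained peaks of both genes were called with the altered versions. With dC, 8 of 10 were called at Pax5 and 9 of 10 at Zcchc7, where 76.3% of all 18765 gained peaks were. With dPLD the counts were 9 of 10 and 10 of 10, against 77.2%. With F-GATA3 they were 6 of 10 and 9 of 10, against 70.0%. All 3 altered versions called 6 of 10 and 8 of 10, against 57.3%. With 10 peaks per gene these counts lie near the background, and they are not read as particular to either gene. The 10 are not all separate, since 1 broad dC peak and 1 broad dPLD peak each matched 2 neighbouring wt peaks. This occurred at 46.1 and 46.9 kb in Pax5 and at 153.6 and 154.4 kb in Zcchc7. Counted by joined position, Pax5 had 8 with wt, 6 with dC, 7 with dPLD and 5 with F-GATA3.

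The wt fold of a gained peak went with whether F-GATA3 called it. Above the wt list's median fold of 7.20, F-GATA3 called 4 of 4 gained peaks at Pax5 (wt folds of 9.94 to 24.8) and 7 of 7 at Zcchc7 (7.92 to 14.1), where 91.5% of all such peaks were called. Below it, F-GATA3 called 2 of 6 at Pax5 (5.83 to 6.89) and 2 of 3 at Zcchc7 (4.56 to 6.47), against 55.6%. The peaks of Pax5 that F-GATA3 did not call thus all had wt folds below that median. So did those not called with dC (6.77 and 5.83) and with dPLD (6.77), while the Zcchc7 peak without dC had 9.84. The split over all gained peaks was made for F-GATA3 alone, whose list was the shortest of the EBF1 versions, at 25072 peaks.

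In A-MuLV cells 4 of 10 fetal liver wt peaks at Pax5 and 10 of 14 at Zcchc7 were called with wt, against 49.7% of all of them. Of the A-MuLV Brg1 wt peaks, 7 of 13 at Pax5 and 15 of 24 at Zcchc7 were called with dC, against 62.4%. In the other direction, wt called 9 of 11 dC peaks at Pax5 and 12 of 15 at Zcchc7, against 65.6%. Many of these are weak peaks beside a strong one. At a −log10 q of at least 10, the A-MuLV lists held 2 (wt) and 3 (dC) peaks at Pax5 and 5 and 7 at Zcchc7, so the lower number of dC peaks is not seen among the stronger ones.

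EBF1 was called at 11 sites in the windows, 4 in Pax5 and 7 in Zcchc7, of which 8 were called with both forms, 3 with dC alone and 0 with wt alone. The 2 EBF1 wt peaks at Pax5 and the 6 at Zcchc7 were called with dC, against 76.7% of all 6155. Of the dC peaks, 2 of 4 and 6 of 7 were called with wt, against 42.1% of all 11147. The 8 EBF1 wt peaks of both genes overlapped a Brg1 peak 1 time with the empty vector, where 17.0% of all did. With the EBF1 versions in fetal liver cells they did so 7 times with wt (66.9% of all), 6 with dC (52.5%), 7 with dPLD (59.2%) and 7 with F-GATA3 (62.9%). In A-MuLV cells it was 8 times with wt (72.0%) and 7 with dC (47.0%). The exceptions in fetal liver cells were the site at 26.1 kb, without Brg1 in any fetal liver list, and the site at 162.0 kb with dC.

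Summit distances were taken for each pair of an EBF1 site and a library with an overlapping Brg1 peak. The EBF1 summit was that of wt, also for dC libraries, or that of dC where wt had no peak. At the site 182.0 kb from the Zcchc7 start the wt and dC EBF1 summits lay 323 bp apart, so the choice matters there. Of 55 such pairs at the 11 sites, 44 had summits within 200 bp, where 69.2% of all 39913 pairs did. A broad Brg1 peak over both EBF1 sites near the Pax5 start counts at each. At the site 4.5 kb inside Pax5 the distance was 4 to 51 bp in all 6 libraries, and at 39.5 kb it was 2 to 75 bp. At 5.3 kb the Brg1 summit was that of the neighbouring site in 5 of 6 libraries.

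**Figure D5:**
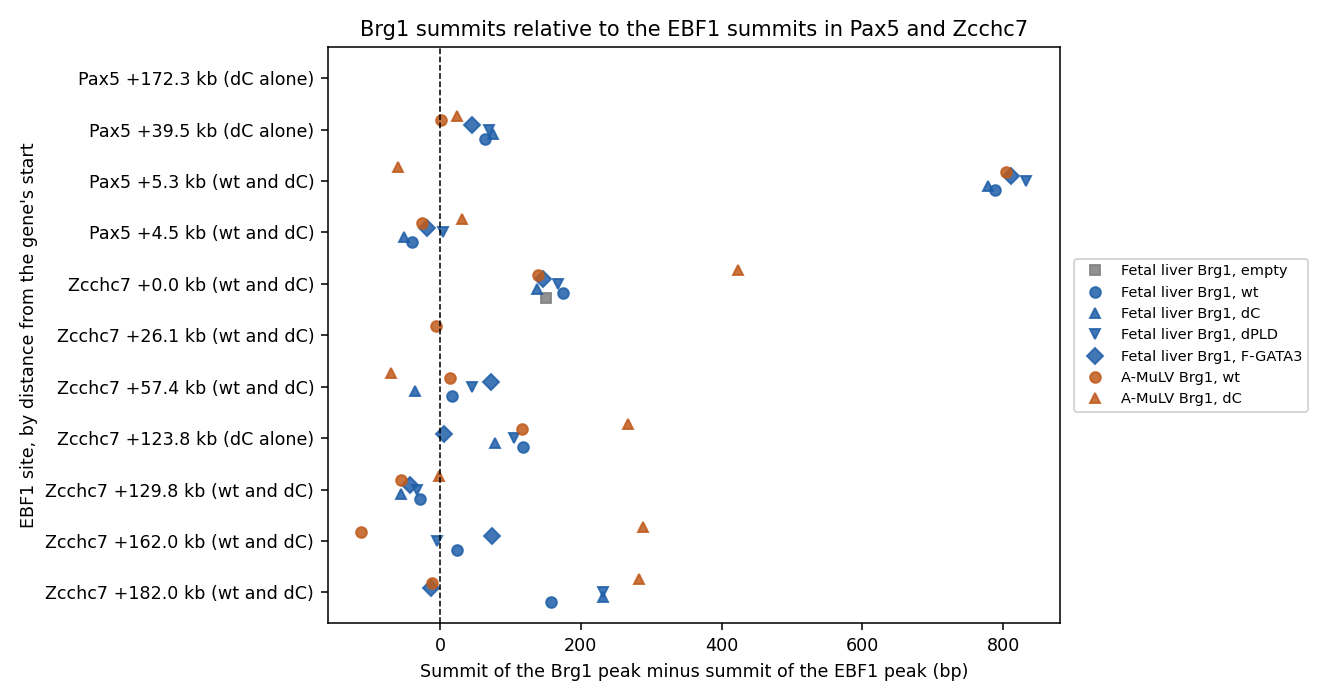
Distance in bp from the EBF1 summit to the summit of the overlapping Brg1 peak (x axis) at the 11 EBF1 sites of Pax5 and Zcchc7 (y axis), 1 marker per library. The EBF1 summit is that of wt where called, and otherwise that of dC. Of 55 markers, 44 lie within 200 bp of 0, those at Pax5 +5.3 kb stand to the right in 5 libraries, and Pax5 +172.3 kb has none.

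Genes of the Pax5 pathway were counted in the same way. All 8 regulators of Pax5 in a list of such factors had a gained peak, and all 8 also had an empty-vector peak. The highest wt folds were at Irf8 (17.5, its highest gained fold being 12.0), Tcf3 (16.8, gained) and Ebf1 (14.3, gained). Of 10 genes known to be activated by Pax5, 9 had a gained peak and 8 an empty-vector peak. The highest wt folds in this list, gained or not, were at Cd72 (26.9), which had no gained peak, Bach2 (23.3), Spib (22.0) and Nedd9 (20.8). The highest gained folds were 6.73 at Bach2, 11.8 at Spib and 17.6 at Nedd9. Of 6 genes known to be repressed by Pax5, 4 had a gained peak and 6 an empty-vector peak. The highest wt folds of these were at Flt3 (26.3) and Notch1 (21.7), whose highest gained folds were 6.37 and 6.78. Of the 8 other Pax family genes, 2 had a gained peak and 4 an empty-vector peak. The background for both counts is given above, as 48.9% and 45.2% of protein-coding genes.

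By their 9 peak counts, the genes most like Pax5 were Hemk1, Pde4c, Dennd4a, Scn4a and Prkcb, with a Bray-Curtis dissimilarity (0 for equal counts, 1 for none shared) of 0.065 to 0.094. Of these, Pde4c also had no empty-vector peak. The genes most like Zcchc7 were Rgl1 (0.069), Ebf1 (0.094), Tg (0.095), Cyth1 and Arhgef3 (0.098 each). These likenesses are over 9 libraries and describe peak numbers only.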

How the data were processed

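The 9 deposited peak lists were used. Per the submitters' processing notes, the tools include MACS2 2.1.2, Bowtie2 2.3.3.1, deepTools 3.3.1 and SAMtools 1.9, on GRCm38. Positions of peaks and summits are the authors'. The fold is the authors' ratio of ChIP pileup to background at the summit. The −log10 p and −log10 q are also the authors' summit values, and their deposited score is the −log10 q multiplied by 10. Column meanings follow the narrowPeak format. How peaks were thresholded, how duplicates were treated and which input served which library is not given in the sources used here. Inputs were, per the labels, 1 from fetal liver EBF1 wt cells and 4 from A-MuLV cells. Each list comes from 1 library. Folds describe, rank or split peaks within a list.

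Peaks on unplaced scaffolds were left out. Peaks overlapped when they shared at least 1 bp, and overlapping peaks of any list were joined into a position. Gene bodies, starts and promoter sequence came from RefSeq tables. Overlap rules were tested on simulated intervals with Python 3.11.15, and figures were drawn with matplotlib 3.10.9. The motif was searched in promoter windows alone, as peak sequence was not used here.

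The members, gene lists and markers were chosen with earlier results of these data known. The genes named are Pax5 and Zcchc7, the list members with the 2 to 4 highest wt folds, the 5 genes most like each member by peak counts, and genes within the windows. Markers, the 4 genes like Pax5 in having no empty-vector peak, and Gm12679 beyond Zcchc7 are named outside this rule, after their values had been seen. The counts were repeated with peaks of −log10 q 20 or more, with equally long lists, with overlaps of 50% of the shorter peak, with summits within 200 bp, with gene bodies alone and with 50 kb around them. A minimum −log10 q of 10 was a later choice, made with the data seen.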

Additional observations from a re-analysis of the deposited data

Results flagged for a closer look

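The number of Brg1 peaks at Zcchc7 went opposite ways between wt and dC in the 2 kinds of cell. In fetal liver cells it was 14 with wt and 16 with dC, a difference of 2, and in A-MuLV cells 24 with wt and 15 with dC, a difference of -9. With 1 library each, the difference was not tested. The A-MuLV Brg1 lists reach a −log10 q of 1.37 (wt) and 1.33 (dC), and the fetal liver lists stop at 10.0. At a −log10 q of at least 10 the A-MuLV counts were 5 with wt and 7 with dC, so the direction turned. With the lists held to equal length, the fetal liver counts were 9 with wt and 8 with dC, and the A-MuLV counts stayed at 24 and 15. The opposite directions were thus not seen with either of these settings. Counted by joined position, fetal liver cells had 13 with wt and 16 with dC, and A-MuLV cells 14 and 11.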

How the results depend on the processing

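Over 12 counts of gained or kept peaks and 7 alternatives, 63 of 84 values stayed within 1.5 times the reported count and 21 did not. At a −log10 q of at least 20, Pax5 had 6 gained peaks, of which 4 were called with dC and 5 with dPLD. Its A-MuLV Brg1 wt peaks called with dC were then 2 of 2, those of Zcchc7 1 of 2, and the EBF1 wt peaks of Zcchc7 called with dC 3 of 3. At a −log10 q of at least 10, chosen after seeing the data, the A-MuLV Brg1 wt peaks called with dC were 2 of 2 at Pax5 and 4 of 5 at Zcchc7. With lists of equal length, Pax5 had 5 gained peaks, 4 called with dC and 5 with dPLD, and Zcchc7 had 5 (dC) and 6 (dPLD) of 8. With summits within 200 bp, A-MuLV Brg1 wt peaks called with dC were 3 of 13 at Pax5 and 7 of 24 at Zcchc7. With 50 kb around the genes, Zcchc7 had 19 gained peaks, 17 called with dC, 19 with dPLD and 17 with F-GATA3, and 24 of 39 A-MuLV Brg1 wt peaks called with dC, while the EBF1 wt peaks of Pax5 called with dC were 4 of 4. By construction, the minimum q, the list length and the window change how many peaks enter, and the summit distance changes which count as matched. No paired analysis was possible because each group had 1 library, and no library could be left out for the same reason. Depth is unknown, so weak positions called with some versions alone cannot be told from positions just under the threshold in the others.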

Other observations

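The stretch of 25.9 kb between the windows of Pax5 and Zcchc7 held further positions with the same split between the empty vector and the EBF1 versions. At 18.5 kb upstream of Pax5, Brg1 had folds of 12.7 with wt, 14.9 with dC, 15.7 with dPLD and 13.0 with F-GATA3 in fetal liver cells, with no empty-vector peak and no EBF1 peak. Both A-MuLV Brg1 lists called it, at 6.68 (wt) and, at 17.2 and 18.6 kb, 4.60 and 4.14 (dC). At 31.4 kb upstream of Pax5, EBF1 wt had a peak of 15.9 and EBF1 dC a peak of 24.6. Brg1 was called there at 8.19 (wt), 4.03 (dC), 6.58 (dPLD) and 5.42 (F-GATA3) in fetal liver cells and at 8.69 (wt) and 5.27 (dC) in A-MuLV cells, and not with the empty vector.

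Beyond the Zcchc7 window, 213.7 kb from its start and within the lncRNA gene Gm12679, A-MuLV Brg1 had a fold of 30.0 with wt, rank 28 of 24493, and 20.0 with dC, rank 38 of 24420. EBF1 wt had a fold of 33.2 there and EBF1 dC 26.5. The fetal liver Brg1 folds at this position were 17.8 (wt), 8.26 (dC), 9.97 (dPLD) and 12.8 (F-GATA3), and no empty-vector peak was called. These positions lie outside the windows of both genes and were chosen after their values had been seen.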
